A study of Mus musculus with 6 samples.

Results

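The 10 genes described here encode proteins that take up glucose, break it down or respond to low oxygen: the glucose transporters Slc2a1 and Slc2a3, the glycolytic enzymes Hk1, Hk2, Pfkp, Aldoa, Pgk1 and Ldha, the mitochondrial kinase Pdk1 and the growth factor Vegfa. They were chosen by name, and each name matched 1 of the 55367 rows of the count table. All 10 passed the filter on low counts, together with 16976 genes in all that were tested. RNA-seq was carried out on cortical cells of C57BL/6J mouse pups at postnatal day 1, cultured for 2 days, from wild-type (WT) mice (n = 3) and from Fmr1-KO mice (n = 3), in which the gene for the RNA-binding protein FMRP is disrupted in the whole animal. The labels name no treatment. The study describes cultures from which astrocytes carrying ACSA-2 and myelin were removed with microbeads before plating. The study calls the samples independently derived, while the labels name no separate litters or cultures, and the p-values measure the spread between these samples.

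Glycolysis turns glucose into pyruvate in the cytoplasm and is a main route of carbon into brain cells, and neurons are known to rely on glucose that crosses the membrane through transporters of the SLC2A (GLUT) family. Pyruvate is then either reduced to lactate by lactate dehydrogenase or passed into mitochondria, where pyruvate dehydrogenase kinases hold back its oxidation. When oxygen is low, the hypoxia-inducible factors (HIF) accumulate and bind short sequences beside many of these genes, which are for this reason also classic hypoxia-responsive genes.

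The libraries held 30348556 to 35126207 counts, and levels are given below in CPM, the counts of a gene per 1000000 counts of the TMM-scaled library. The TMM factors ran from 0.990 to 1.01. Fmr1 itself, the targeted gene, had 3656 to 4113 counts in WT and 1761 to 1972 in Fmr1-KO. Neuronal markers were abundant, with a mean of 1185 CPM for Map2 and 1093 CPM for Tubb3 in WT, but so was the astrocyte marker Gfap, at 2649 CPM in WT and 2297 CPM in Fmr1-KO. Xist, the RNA of the inactive X chromosome, had 9935 to 10854 counts in WT and 26827 to 31491 in Fmr1-KO. The Y-linked genes Eif2s3y, Ddx3y and Kdm5d were lower in Fmr1-KO, at 72.3%, 82.2% and 90.1% of WT, and the labels do not give the sex of the pups. The labels give no batch, so none could be compared within.

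The starts of the genes were searched for the core letters that HIF binds, ACGTG or GCGTG, on both strands. The other strand shows as CACGT or CACGC, and the run CACGTG, which reads the same on both strands, is also the E-box bound by other factors. RefSeq promoter windows on GRCm38.p6 matched 9 of the 10 genes, all but Slc2a3, and the 250 bases before the most upstream RefSeq start were searched. For Ldha and Aldoa the whole window lies inside the gene span given below, which comes from GENCODE. Distances from the start are therefore from the RefSeq start. The windows of Ldha and Pfkp, the enzymes with the lowest ratio of Fmr1-KO to WT among the 10 genes, and of Slc2a1 and Vegfa, the genes that were higher in Fmr1-KO, are shown 5′ to 3′ with the core letters in capitals.
Ldha, chr7:46845554-46845803, plus strand: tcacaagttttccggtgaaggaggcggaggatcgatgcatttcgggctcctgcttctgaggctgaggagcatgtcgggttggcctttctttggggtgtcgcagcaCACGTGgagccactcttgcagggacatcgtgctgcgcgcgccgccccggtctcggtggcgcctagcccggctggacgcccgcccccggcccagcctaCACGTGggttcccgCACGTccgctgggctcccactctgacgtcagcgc
Pfkp, chr13:6648772-6649021, minus strand: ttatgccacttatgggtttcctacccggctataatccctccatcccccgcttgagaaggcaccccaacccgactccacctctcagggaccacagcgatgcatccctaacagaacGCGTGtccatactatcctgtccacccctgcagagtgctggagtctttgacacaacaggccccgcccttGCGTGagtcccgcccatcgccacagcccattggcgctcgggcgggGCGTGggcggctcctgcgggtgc
Slc2a1, chr4:119108495-119108744, plus strand: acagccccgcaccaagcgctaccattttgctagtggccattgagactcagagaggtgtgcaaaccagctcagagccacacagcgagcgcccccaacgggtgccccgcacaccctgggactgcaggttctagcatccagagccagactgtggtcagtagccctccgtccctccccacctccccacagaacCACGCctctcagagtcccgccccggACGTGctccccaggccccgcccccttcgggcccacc
Vegfa, chr17:46032378-46032627, minus strand: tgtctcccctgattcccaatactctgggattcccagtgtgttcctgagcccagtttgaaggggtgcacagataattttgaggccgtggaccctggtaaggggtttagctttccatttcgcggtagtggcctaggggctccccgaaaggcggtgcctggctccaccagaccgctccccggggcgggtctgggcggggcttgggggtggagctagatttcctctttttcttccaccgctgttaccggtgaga

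Ldha held 3 separate sites, of which the CACGTG runs began 145 and 48 bases before the start and the last began 34 bases before it. Pfkp also held 3, all GCGTG on its own strand, at 136, 68 and 23 bases. In a search of 27025 genes, 4.75% of the most upstream windows held 3 or more separate sites. Slc2a1 held a GCGTG match on the other strand at 61 bases and an ACGTG match at 36 bases. No match was found in these letters of Vegfa, Hk1 or Aldoa, although a second window of each held at least 1. In all, 6 of the 9 genes held either core in the most upstream window, where 38.6% of all genes did, and 4 of the 9 held ACGTG, where 16.6% did. The cores were present in genes that were lower in Fmr1-KO (Ldha, Pfkp, Pgk1), in 1 that was higher (Slc2a1) and in 2 that were not called (Hk2, Pdk1). A match describes the letters and was not tested as a binding site.

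**Figure D1:**
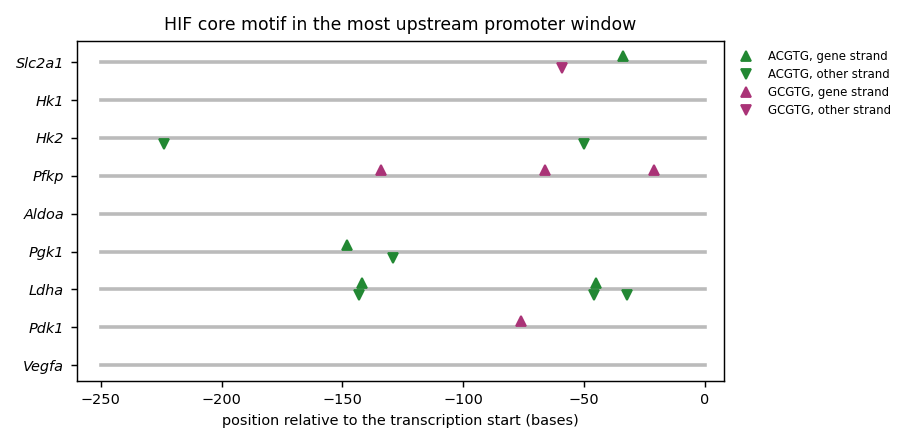
Position of each HIF core match, in bases relative to the RefSeq transcription start, in the most upstream 250-base RefSeq window of 9 genes. Upward triangles lie on the gene's strand and downward triangles on the other. Ldha and Pfkp each show 3 separate sites, and Hk1, Aldoa and Vegfa show no match.

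Between the genotypes the 10 genes did not move as 1 group. In the quasi-likelihood test of edgeR, with p-values adjusted by the Benjamini-Hochberg method over all tested genes, 5 were lower in Fmr1-KO (Slc2a3, Hk1, Pfkp, Pgk1 and Ldha), 2 were higher (Slc2a1 and Vegfa) and 3 were not called (Hk2, Aldoa and Pdk1). Of all tested genes, 21.9% were called lower and 20.7% higher, or 42.6% in either direction. Where only genes averaging 20 CPM or more were counted, a level that all 10 genes reached, the shares were 27.1% lower and 24.2% higher, or 51.3% in either direction. In 7 of the 10 genes the libraries of the genotypes did not overlap, as was the case for 51.7% of all tested genes. The median log2 fold-change of the 10 genes was -0.087, beside 0.0060 for all tested genes. The share of calls thus lay somewhat above that of all genes, on a list of only 10. These are bulk samples, in which fewer cells of a type and less RNA per cell cannot be told apart.

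**Figure D2:**
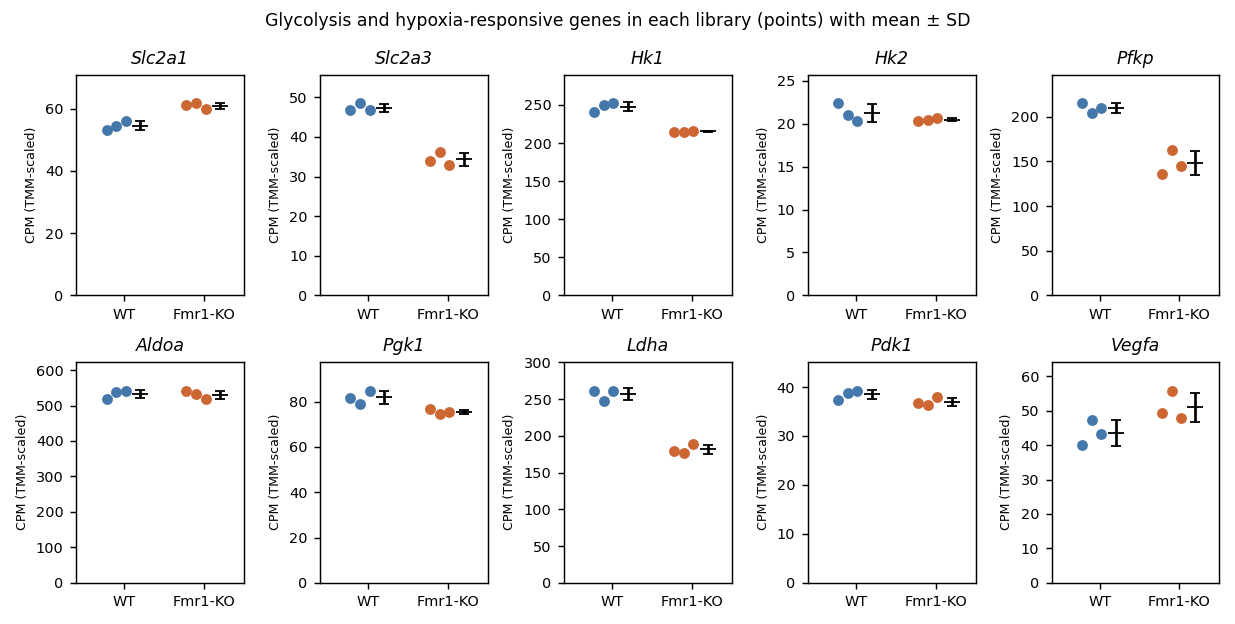
TMM-scaled CPM of the 10 genes in each WT (blue) and Fmr1-KO (orange) library, with the mean and SD (n = 3) as bars and axes starting at 0. The Fmr1-KO libraries of Slc2a3, Pfkp and Ldha lie far below all WT libraries, while those of Hk2, Aldoa and Pdk1 overlap with them.

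The genes for the glucose transporters moved in opposite directions. Slc2a1 encodes GLUT1, the transporter best known from glia and from the blood-brain barrier, and lies on the plus strand of chromosome 4 from 119108711 to 119137983 (GRCm38). Its level was 53.1, 54.4 and 56.0 CPM in the WT libraries and 61.1, 61.7 and 59.9 CPM in the Fmr1-KO libraries. All Fmr1-KO libraries lay above all WT libraries, by a small margin. The difference on the log2 scale was 0.16 (SE 0.038, edgeR adjusted p = 0.00189), which is 112% of the WT level (95% confidence interval 106% to 118%).

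Slc2a3 encodes GLUT3, the transporter with high glucose affinity that is typical of neurons, and lies on the minus strand of chromosome 6 from 122727809 to 122801640. It had 46.7, 48.5 and 46.7 CPM in WT and 33.9, 36.1 and 33.0 CPM in Fmr1-KO. The gap between the genotypes was several times the range within either of them. This gave a log2 fold-change of -0.46 (SE 0.045, edgeR adjusted p = 3.68e-08), or 72.6% of WT. Slc2a3 was also the 1 gene of the 10 among the 1027 names that the study lists as targets of nonsense-mediated mRNA decay in mouse N2A neuroblastoma cells. Those names also hold genes described below that moved either way or were not called. Their log2 fold-changes were -0.13 for Pfkm, 0.64 for Car12 and -0.017 for Hif1a (not called). For the listed targets as a group, the study reports generally lower levels in Fmr1-KO in these cultures. It also describes targets whose enhanced decay was masked by greater synthesis. The part of this decay in the value of Slc2a3 was not tested. Within each library, the log2 ratio of Slc2a1 to Slc2a3 counts was 0.21 ± 0.050 (SD, n = 3) in WT and 0.83 ± 0.047 (SD, n = 3) in Fmr1-KO. The difference was 0.62, with no overlap (exact permutation test, two-sided, p = 0.1, the smallest that 3 against 3 can give).

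Of the hexokinases, which trap glucose in the cell by phosphorylating it, Hk1 is the main isoform of the brain and Hk2 the isoform known to be induced by hypoxia. Hk1 (chromosome 10, minus strand, 62268855 to 62379908) had 241, 249 and 252 CPM in WT and 214, 215 and 216 CPM in Fmr1-KO. The Fmr1-KO values sat within 2 CPM of each other and below every WT value. On the log2 scale the fold-change was -0.20 (SE 0.030, edgeR adjusted p = 1.07e-05), or 86.9% of WT.

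Hk2 (chromosome 6, minus strand, 82725025 to 82774454) was the gene with the lowest level per kilobase of the 10. It had 22.4, 21.0 and 20.3 CPM in WT and 20.3, 20.4 and 20.6 CPM in Fmr1-KO, so the genotypes overlapped. The log2 fold-change of -0.054 had a 95% confidence interval from -0.17 to 0.065 (edgeR adjusted p = 0.481). The log2 ratio of Hk2 to Hk1 was -3.54 ± 0.10 (SD, n = 3) in WT and -3.40 ± 0.0063 (SD, n = 3) in Fmr1-KO, a difference of 0.15 with no overlap (exact permutation test, two-sided, p = 0.1).

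Pfkp encodes the platelet-type phosphofructokinase, 1 of the isoforms of the enzyme at the committed step of glycolysis, and had, with Ldha, the largest change of the 10 genes. It lies on the minus strand of chromosome 13 from 6579768 to 6648777. Its level was 215, 204 and 210.0 CPM in WT and 136, 162 and 145 CPM in Fmr1-KO. All Fmr1-KO libraries were lower than all WT libraries, but they were spread more widely, with an SD of 13.4 CPM against 5.25 CPM in WT (n = 3 each). Pfkp thus had a log2 fold-change of -0.51 (SE 0.045, edgeR adjusted p = 8.70e-09), or 70.4% of WT (95% confidence interval 66.0% to 75.1%). Leaving out 1 library at a time gave -0.58 to -0.45, and the order of Pfkp and Ldha turned without WT replicate 2, Fmr1-KO replicate 1 or Fmr1-KO replicate 3.

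The muscle-type isoform gene Pfkm fell less, by 0.13 on the log2 scale (edgeR adjusted p = 0.00237), and the liver-type isoform gene Pfkl differed by 0.021 (edgeR adjusted p = 0.759). Accordingly, the log2 ratio of Pfkp to Pfkm went from 0.26 ± 0.044 (SD, n = 3) in WT to -0.13 ± 0.15 (SD, n = 3) in Fmr1-KO, and that of Pfkp to Pfkl from 2.05 ± 0.11 to 1.52 ± 0.22. Neither ratio overlapped between the genotypes (exact permutation test, two-sided, p = 0.1 each). The transcript shares 16.04% of its 100-base windows with Pitrm1, a gene on the opposite strand, which the stranded counting keeps apart.

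Aldoa encodes the aldolase that splits fructose 1,6-bisphosphate and was the most abundant of the 10 transcripts per kilobase. Its name covers 2 adjoining gene entries on the minus strand of chromosome 7, from 126795234 to 126800751 and from 126800790 to 126809108, which the counting by name sums. It had 519.6, 539 and 540.0 CPM in WT and 542, 532 and 519 CPM in Fmr1-KO. The values of the genotypes were interleaved. The log2 fold-change of -0.0050 had a 95% confidence interval of -0.066 to 0.056 (edgeR adjusted p = 0.912), the narrowest interval of the 10 genes. The brain aldolase gene Aldoc was higher, by 0.13 on the log2 scale (edgeR adjusted p = 8.51e-04). The log2 ratio of Aldoa to Aldoc was 0.76 ± 0.029 (SD, n = 3) in WT and 0.63 ± 0.010 (SD, n = 3) in Fmr1-KO, without overlap (exact permutation test, two-sided, p = 0.1).

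Pgk1 encodes phosphoglycerate kinase, which makes ATP in the lower part of glycolysis, and is X-linked (plus strand, 106187100 to 106203699). It had 81.7, 79.1 and 84.9 CPM in WT and 76.7, 74.6 and 75.2 CPM in Fmr1-KO. The Fmr1-KO libraries were lower without overlap, but the gap between the nearest libraries was smaller than the spread within WT. The fitted fold-change was -0.12 (log2) (SE 0.037, edgeR adjusted p = 0.0137), or 92.2% of WT. The call was lost when library totals replaced TMM (-0.089, edgeR adjusted p = 0.0565) and in the fit without WT replicate 3 (-0.091, edgeR adjusted p = 0.0871). The value is also uncertain because 67.0% of the 100-base windows of its longest coding transcript occur in 3 other gene names on the same strand (Pgk1-rs7, Gm5537 and AC131796.1). The 557 tested genes of chromosome X had a median log2 fold-change of 0.0095, with 24.06% lower and 24.96% higher. For the 16153 tested autosomal genes the median was 0.0054, with 21.9% lower and 20.5% higher. These values do not measure the mix of sexes, for which Xist and the Y-linked genes differed between the genotypes. The part of the sex of the pups in the value of Pgk1, and in those of the other genes and lists, was not tested.

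Ldha encodes the A subunit of lactate dehydrogenase, the form that favours the making of lactate, and lies on the plus strand of chromosome 7 from 46841475 to 46855627. Its level was 261, 247 and 261 CPM in WT and 179.5, 176 and 189 CPM in Fmr1-KO. The highest Fmr1-KO library was far below the lowest WT library. The log2 fold-change amounted to -0.50 (SE 0.034, edgeR adjusted p = 1.51e-10), or 70.8% of WT (95% confidence interval 67.4% to 74.3%), the smallest adjusted p of the 10 genes. Only 1.28% of its windows are shared, with 2 pseudogenes.

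Ldhb, the gene for the B subunit that favours the use of lactate, moved the other way, from 174 CPM in WT to 197 CPM in Fmr1-KO, a rise of 0.18 on the log2 scale (edgeR adjusted p = 1.85e-04). The log2 ratio of Ldha to Ldhb counts was 0.63, 0.48 and 0.57 in the WT libraries and -0.15, -0.10 and -0.10 in the Fmr1-KO libraries. The sign of the ratio of raw counts thus differed between every WT and every Fmr1-KO library. The mean difference was -0.68, the largest of the 7 paralog ratios computed (exact permutation test, two-sided, p = 0.1, and 0.117 after Benjamini-Hochberg adjustment over the 7 ratios).

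**Figure D3:**
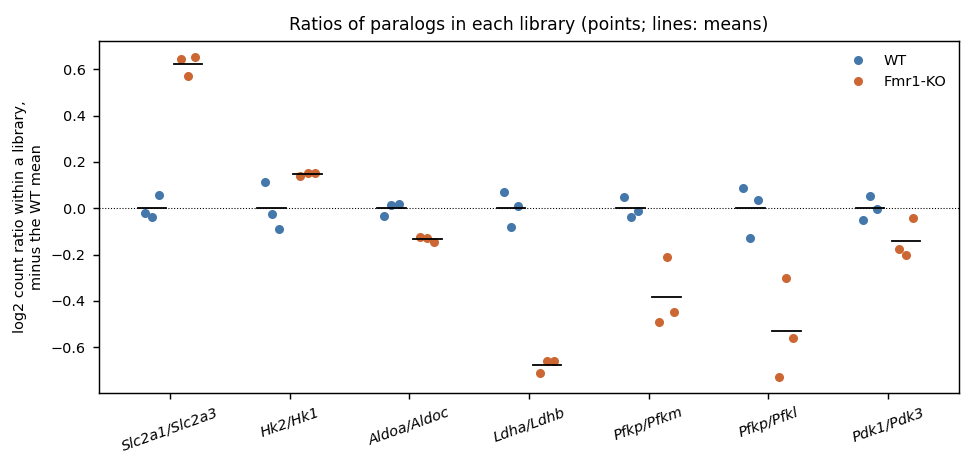
Within-library log2 ratio of the counts of paralogs, minus the WT mean of each pair, for WT (blue) and Fmr1-KO (orange) libraries, with lines at the means (n = 3). Slc2a1/Slc2a3 lies higher in all Fmr1-KO libraries and Ldha/Ldhb lower, and Pdk1/Pdk3 is the pair with overlap.

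Pdk1 encodes pyruvate dehydrogenase kinase 1, which inhibits the entry of pyruvate into the citric acid cycle, and lies on the plus strand of chromosome 2 from 71873224 to 71903858. It had 37.4, 38.8 and 39.3 CPM in WT and 36.8, 36.3 and 37.9 CPM in Fmr1-KO. The highest Fmr1-KO library lay above the lowest WT library. The log2 fold-change of -0.057 had a 95% confidence interval of -0.15 to 0.035 (edgeR adjusted p = 0.318). The log2 ratio of Pdk1 to Pdk3 differed by -0.14, with overlap (exact permutation test, two-sided, p = 0.2).

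Vegfa encodes the vascular endothelial growth factor A, the ligand through which tissue short of oxygen calls in blood vessels, and lies on the minus strand of chromosome 17 from 46016993 to 46032369. It had 39.9, 47.3 and 43.4 CPM in WT and 49.2, 55.8 and 47.9 CPM in Fmr1-KO. All Fmr1-KO libraries were higher, though the lowest of them lay only just above the highest WT library. Its log2 fold-change was 0.23 (SE 0.059, edgeR adjusted p = 0.00350), or 117% of WT (95% confidence interval 108% to 127%). It had the largest SE of the 10 genes and ran from 0.16 to 0.29 when single libraries were left out.

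**Figure D4:**
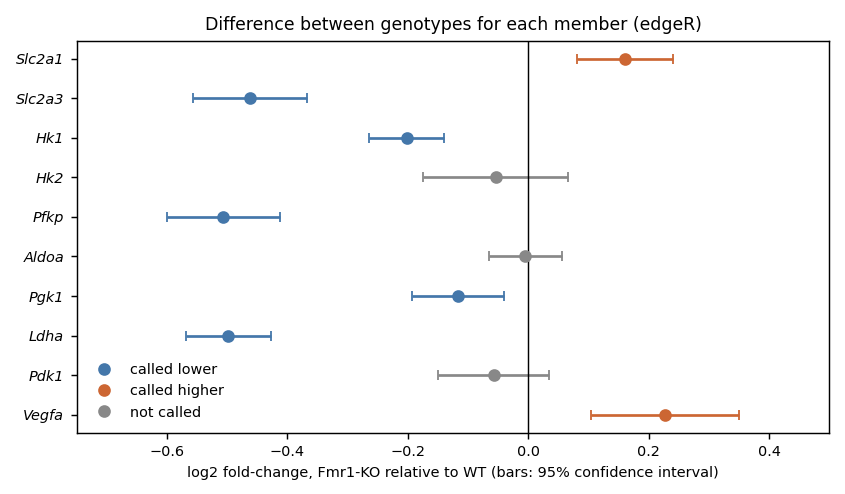
Log2 fold-change of each gene in Fmr1-KO relative to WT from edgeR, with 95% confidence intervals as bars, in blue where called lower, orange where called higher and grey where not called. Slc2a3, Pfkp and Ldha cluster between -0.51 and -0.46, and Slc2a1 and Vegfa lie at 0.16 and 0.23.

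Per kilobase of exon, the levels of the 10 genes in WT ran from 144 CPM per kilobase for Aldoa through 77.5 for Ldha, 36.5 for Pgk1, 29.0 for Hk1, 15.6 for Pfkp, 15.5 for Slc2a1, 10.2 for Vegfa, 6.53 for Slc2a3 and 4.95 for Pdk1 to 3.56 for Hk2. With these lengths Pfkp and Slc2a1 did not differ beyond their spread. In Fmr1-KO, Slc2a1 (17.4 CPM per kilobase) and Vegfa (11.9) stood above Pfkp (11.02), and Pdk1 (4.75) stood level with Slc2a3 (4.74), and the libraries of Vegfa and Pfkp overlapped, as did those of Pdk1 and Slc2a3. The place of Pfkp depended on the length. With the longest coding transcript in place of all exons, a choice made after the data were seen, Pfkp had 50.6 CPM per kilobase in WT and 35.6 in Fmr1-KO, well above Slc2a1 (16.7 and 18.7) and Vegfa (12.6 and 14.8). With that length Hk1 (57.9) and Pfkp also stood above Pgk1 (44.9) in WT, and Slc2a3 (8.67) stood above Pdk1 (7.13) in Fmr1-KO. The place of Pgk1 is uncertain with either length, because 67.0% of the windows of its longest coding transcript occur in other gene names. Aldoa and Ldha were first and Hk2 last with both lengths and in both genotypes.

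Other genes of the same pathways moved in both directions, as did all tested genes, of which 21.9% were called lower and 20.7% higher. Of 16 other glycolytic enzyme genes tested, 5 were lower and 3 higher, with a median log2 fold-change of -0.037. The count of 5 became 3 when Fmr1-KO replicate 2 or either of WT replicates 1 and 3 was left out. It also became 3 with upper-quartile scaling or library totals alone, and 2 when a fold change of at least 1.2 was required. The median reached -0.073 without Fmr1-KO replicate 3 and -0.071 without Fmr1-KO replicate 1. The largest falls were in Hk3, a hexokinase of blood cells (-0.86, from 8.77 to 4.83 CPM), Eno2, the neuronal enolase (-0.56, from 66.3 to 45.1 CPM), and Pfkm. The genes that rose were Hkdc1 (0.92, from 0.819 to 1.55 CPM), a hexokinase-like gene with few counts, Ldhb and Aldoc. Gapdh, the housekeeping dehydrogenase, differed by 0.0075 on the log2 scale (edgeR adjusted p = 0.863), though 78.0% of its windows occur in 84 other gene names. Of 5 regulators of glycolysis, Pfkfb3, whose enzyme makes the activator of phosphofructokinase, was lower (-0.099, edgeR adjusted p = 0.0133), and the other 4 were not called. That call was lost when library totals replaced TMM, as it was in the fit without WT replicate 3.

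Of 9 other transporters of glucose and monocarboxylates, 2 were lower and 3 higher. The inositol transporter gene Slc2a13 had a log2 fold-change of -0.87 (from 23.1 to 12.6 CPM), and Slc16a7, which encodes the neuronal lactate and pyruvate transporter MCT2, one of -0.32. The insulin-responsive transporter gene Slc2a4 (GLUT4) had the highest, 1.09, from 6.17 CPM in WT to 13.1 CPM in Fmr1-KO, followed by Slc2a10 (0.51) and Slc2a12 (0.28). Of 12 genes for the entry of pyruvate into mitochondria, 6 were lower, among them Pdha1 (-0.20) and Dlat (-0.19), subunits of pyruvate dehydrogenase, and Mpc1 (-0.17), of the mitochondrial pyruvate carrier. The 1 that was higher was Pdk4 (0.32). The count of 6 became 3 when library totals replaced TMM, and 2 in the fits without WT replicate 3 or Fmr1-KO replicate 1. Of 7 genes of the pentose phosphate pathway, which branches from glycolysis, Taldo1 and Pgd were lower (-0.16 each) and 5 were not called.

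Most of the oxygen-sensing genes of the HIF pathway were not called. Of 10 such genes, 3 were higher, 0 lower and 7 not called, with a median log2 fold-change of 0.014. Of all tested genes, 20.7% were called higher and 42.6% in either direction, so most of them were not called either. The HIF list holds only 10 genes. The higher genes were Egln3, a prolyl hydroxylase that is itself a HIF target (0.26), Epas1, which encodes HIF-2α (0.21), and Arnt, the HIF-1β partner (0.11, edgeR adjusted p = 0.0481). The call of Arnt was lost with DESeq2 (adjusted p = 0.0991), with the replicate block (0.0618) and in 4 of the 6 fits without 1 library. Hif1a, the gene of HIF-1α, stood at -0.017 (edgeR adjusted p = 0.703). Of 21 other hypoxia-responsive genes tested, 8 were higher and 3 lower, with a median of 0.034 that ran from -0.0084 without WT replicate 2 to 0.11 without WT replicate 1. The highest were Car12, a carbonic anhydrase (0.64, from 25.7 to 40.2 CPM), Ddit4, an inhibitor of mTORC1 (0.43, from 62.0 to 83.4 CPM), and Egln3. The lower genes were Car9, the carbonic anhydrase most used as a hypoxia marker (-1.02, from 4.63 to 2.29 CPM), Ndrg1 (-0.44, from 34.6 to 25.4 CPM) and Pfkfb3. Calls on both sides, as found here and among the 10 genes, are not particular to these targets. Of all tested genes, 21.9% were called lower and 20.7% higher.

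Of 8 genes tested for the relatives and receptors of Vegfa, 4 were higher and 1 lower, with a median of 0.26. Kdr, the main receptor for Vegfa, went from 7.27 to 17.1 CPM (1.23 on the log2 scale, edgeR adjusted p = 1.70e-10), and Flt1, the decoy receptor (0.41, edgeR adjusted p = 0.0369), and the co-receptor gene Nrp1 (0.29) also rose. Nrp2 was lower (-0.23). Without WT replicate 1 the count of 4 became 2. Flt1 had few counts, and its call was lost with DESeq2 (adjusted p = 0.142) and in the fits without Fmr1-KO replicate 2 or 3 or any 1 WT library. Kdr and Flt1 are also markers of endothelial cells, whose 5 tested markers summed to 11.7 to 15.4 CPM in WT and 21.8 to 24.3 CPM in Fmr1-KO. Without Kdr and Flt1 the other 3 (Pecam1, Cdh5 and Esam) summed to 3.42 to 5.47 CPM in WT and 3.30 to 4.00 CPM in Fmr1-KO. Cdh5 was lower (-0.66, edgeR adjusted p = 0.00677, a call lost without WT replicate 1), Pecam1 (0.35) and Esam (-0.10) were not called, and the defining markers Cldn5 and Tek had too few counts to be tested. The part of endothelial cells in these values was not tested.

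**Figure D5:**
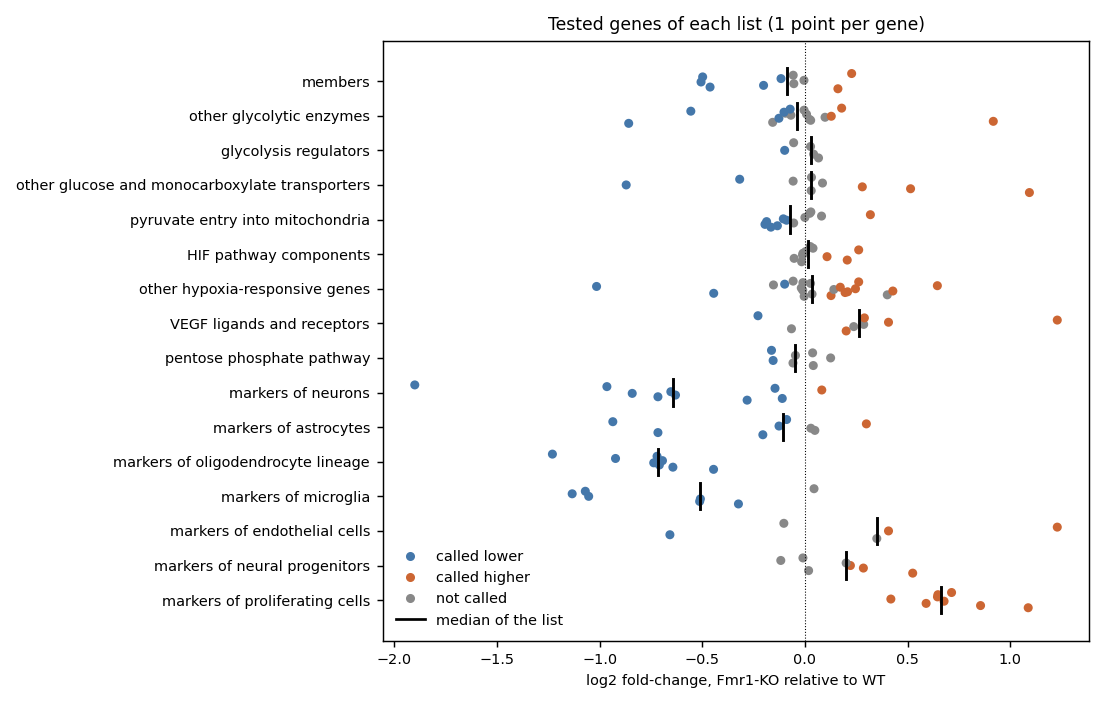
Log2 fold-change in Fmr1-KO relative to WT of each tested gene in the pathway and marker lists (1 point a gene), coloured by its call, with a bar at the median of each list (the erythroid list, with 2 tested genes, is not drawn); "members" are the 10 genes. Calls are only lower among the glycolysis regulators and the pentose phosphate pathway, and only higher among the HIF pathway components. In the other pathway lists they lie on both sides of 0. The 8 markers of the oligodendrocyte lineage are all lower and the 8 of proliferating cells all higher.

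Markers of cell types differed between the genotypes as well. Of 10 neuronal markers, 9 were lower and 1 higher, with a median of -0.64, and their summed level was 5247 to 5380 CPM in WT and 4406 to 4614 CPM in Fmr1-KO. All 8 markers of the oligodendrocyte lineage were lower (median -0.72, summed level 1884 to 2046 CPM in WT and 1075 to 1159 CPM in Fmr1-KO), as were 6 of 7 microglial markers (median -0.51, 160 to 178 CPM in WT and 94.0 to 105 CPM in Fmr1-KO). The microglial count became 4 with DESeq2 or without WT replicate 1, where Cx3cr1 and P2ry12 lost their calls. Of 8 astrocyte markers, 5 were lower and 1 higher (median -0.11, 5427 to 5541 CPM in WT and 4745 to 5156 CPM in Fmr1-KO). Markers of dividing cells moved the other way, with all 8 higher (median 0.66, 526 to 560 CPM in WT and 897 to 959 CPM in Fmr1-KO), and so did 3 of 7 progenitor markers (median 0.20, but 0.081 without Fmr1-KO replicate 3, and 2373 to 2383 CPM in WT and 2628 to 2688 CPM in Fmr1-KO). Of 6 erythroid markers, the 2 tested were lower, and the 6 summed to 1.90 to 2.46 CPM in WT and 1.11 to 1.52 CPM in Fmr1-KO. The call of 1 of them, Hbb-bs, was lost with DESeq2, upper-quartile scaling, library totals alone and a fold change of at least 1.2. It was also lost without WT replicate 1 or 3 or Fmr1-KO replicate 2 or 3. With only 1 contrast, any gene lower in Fmr1-KO goes with every marker list that was lower, and any higher gene with every list that was higher. A shared direction therefore does not link any of the 10 genes to a cell type. The part of cell makeup in the values of the 10 genes was not tested.

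As a description, the genes whose log2 CPM over the 6 libraries was most like that of Pfkp (taken by the size of its change, which exceeded that of Ldha by less than its SE), among 10762 genes averaging 10 CPM or more, were Limch1 (Pearson r 0.998), Pdha1 (0.997), Omg (0.997), Vsir (0.996) and Zfp1 (0.996). Pdha1, a subunit of the enzyme at the mitochondrial end of the pathway, was the 1 gene of the pathway lists among them. The likeness includes the difference between the genotypes, and 638 genes reached an r of at least 0.95 with Pfkp over the same 6 libraries.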

How the data were processed

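The 6 libraries (3 WT, 3 Fmr1-KO) were grouped by their labels. The table that the authors deposited holds raw counts for each gene name. According to the study's methods and processing notes, stranded mRNA libraries (TruSeq) were read from 1 end, trimmed with FastP and aligned to GRCm38.p6 with STAR 2.7.6a. Reads were counted over exons with featureCounts in reverse-stranded mode. For this step the processing notes give Subread 2.0.1, and the methods an earlier release. Stranded counting separates antisense genes, while near-identical copies and isoforms are not resolved.

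The counts were tested with edgeR 4.0.16 (R 4.3.3): filterByExpr, TMM, glmQLFit and glmQLFTest, two-sided, with genotype as the only term, all 6 libraries in the fit and Benjamini-Hochberg adjustment over 16976 genes; calls were made below an adjusted p of 0.05. The common biological coefficient of variation was 3.22%. SE is the size of the log2 fold-change divided by the square root of F. Replicates differed by more than counting noise (chi-square per degree of freedom 2.19 to 3.73), and totals per library were similar, so depth limits only genes with few counts. The script was tested on simulated data with known changes. Gene positions, exon lengths and shared 100-base windows came from GENCODE M21 on GRCm38, in which 98.6% of tested names were found; the study used other releases. Promoter sequences are from RefSeq. Paralog ratios were compared by an exact permutation test over samples.

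The 10 genes, the pathway and marker lists and the tests were chosen with earlier results of these data known. Beside the 10 genes, their paralogs, Fmr1, Gapdh, Hif1a and the markers, the text names up to 3 called genes in each direction per pathway list, by the size of the change, and the 5 genes most like the member with the largest change. Some genes stand in a pair of pathway lists: Pfkfb3, Pfkfb4, Egln1, Egln3 and Slc16a3. Xist, the Y-linked genes, Map2 and Tubb3 were named after their values were seen. Alternatives were DESeq2 1.42.0, scaling by RLE, by upper quartile or by library totals alone, dropping the filter or raising it to 10 counts and 5 CPM on average, the replicate number as a block, a fold change of at least 1.2, and leaving out each library. Protein sequences were not used here.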

Additional observations from a re-analysis of the deposited data

How the results depend on the processing

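For the 10 genes, 129 of 140 log2 fold-changes under the alternatives kept their direction and their side of the threshold, 6 lost the call and 5 changed sign. When a fold change of at least 1.2 was required, 1340 genes were called lower and 883 higher in all, and 3 of the 10 genes lower (Slc2a3, Pfkp and Ldha) and 0 higher (8379 of all genes had an unadjusted p under 0.05 in the test without a minimum, and 3230 with it). The calls lost under that minimum were those of Slc2a1, Hk1, Pgk1 and Vegfa. DESeq2 called 3258 genes lower and 2801 higher. Pgk1 also lost its call when library totals replaced TMM (-0.089) and in the fit without WT replicate 3, and ran from -0.14 to -0.091 as single libraries were left out. Aldoa, which was not called, changed sign with upper-quartile normalization (0.0056) and library totals alone (0.023), and ran from -0.024 to 0.010 as single libraries were left out. Leaving out 1 library gave 3300 to 3569 genes lower and 2969 to 3307 higher, with 4 to 5 of the 10 genes lower and 2 higher. Library totals alone gave 3212 lower and 4207 higher, and moved the median of all genes from 0.0060 to 0.034. Counts of the other lists moved by over 1.5 times in 50 cases and by less in 396, and their medians moved by more than the spread between libraries in 44 cases and by less in 179. The cause of these changes was not tested.

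Same-numbered libraries did not deviate together (correlations of -0.029, 0.032 and -0.015), so the numbers were not taken to pair samples. With the replicate number as a block, 3694 genes were lower and 3488 higher, and 5 of the 10 genes were lower and 2 higher, the same genes as without the block. With 3 libraries a genotype, the paralog ratios could not pass a threshold of 0.05, and the values of Hk2, Aldoa and Pdk1 are limited by their intervals.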
